A study of Mus musculus with 2 samples.

Results

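The proteoglycan and hyaluronan matrix genes described here are Vcan, Hapln1, Has2, Cd44, Dcn, Lum, Bgn, Fmod, Ogn and Aspn, 10 genes chosen by name out of 27999 measured features. All 10 were counted in newborn mouse heart, and none was used to sort cells into types. The study profiled 1 group, whole hearts at postnatal day 0 (P0) from C57BL6+ICR mice with no treatment, as single cells with droplet-based 3' RNA sequencing. Hearts were digested with trypsin for 30 min at 37 °C, so cells that a trypsin digest does not free are missing. The 2 libraries were technical replicates of 1 biological sample, so spread between animals was not measured. No p-value is given, and every interval is a 95% interval for counting error only.

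Hyaluronan is a long sugar chain that cells extrude from the membrane and that fills the cushions of the developing heart. Versican, encoded by Vcan, is a large chondroitin sulphate proteoglycan that hangs on hyaluronan, and the link protein encoded by Hapln1 locks that bond. Has2 encodes the main hyaluronan synthase of the embryonic heart, and Cd44 encodes a hyaluronan receptor on the cell surface. Dcn, Bgn, Lum, Fmod, Ogn and Aspn encode decorin, biglycan, lumican, fibromodulin, osteoglycin and asporin. These are small leucine-rich proteoglycans that bind collagen fibrils and shape their width and spacing, in tendon, valve and heart wall alike.

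The genes lie in part side by side. On GRCm38, Dcn (chromosome 10, 97479609 to 97518143) and Lum (97565128 to 97572703) are 46984 bases apart on the plus strand. Aspn (chromosome 13, 49544443 to 49567565) and Ogn (49608046 to 49624501) share a stretch of the plus strand with the related genes Ecm2 and Omd. Hapln1 (chromosome 13, 89539796 to 89611652, plus strand) and Vcan (89655312 to 89742509, minus strand) are 43659 bases apart. Fmod is on chromosome 1 (134037254 to 134048277, plus), Cd44 on chromosome 2 (102811141 to 102901665, minus), Has2 on chromosome 15 (56665627 to 56694539, minus) and Bgn on the X chromosome (73483602 to 73495933, plus).

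The promoters of Fmod, Hapln1, Cd44 and Ogn, the 4 genes with the largest fold difference between the fibroblast groups, and of Aspn, which shares the cluster of Ogn, are shown because one group is defined by Scx, which encodes a basic helix-loop-helix factor of tendon, a family that binds the E-box CANNTG. Each runs from 250 bases before to 50 bases after the gene start in RefSeq on GRCm38.p6 (for Hapln1 a start inside the GENCODE gene), with every CANNTG in capitals, a motif that reads alike on both strands. The first 3, at chr1:134037004-134037303 and chr13:89540386-89540685 (both plus strand) and at chr2:102901616-102901915 (minus strand), belong to genes that were higher in the Scx/Rspo3-positive fibroblasts.
Fmod: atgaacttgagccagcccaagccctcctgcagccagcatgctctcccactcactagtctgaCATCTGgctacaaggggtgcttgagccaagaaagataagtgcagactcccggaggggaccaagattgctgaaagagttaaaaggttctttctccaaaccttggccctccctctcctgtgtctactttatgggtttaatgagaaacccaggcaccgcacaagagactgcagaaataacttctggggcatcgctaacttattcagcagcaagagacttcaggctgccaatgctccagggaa
Hapln1: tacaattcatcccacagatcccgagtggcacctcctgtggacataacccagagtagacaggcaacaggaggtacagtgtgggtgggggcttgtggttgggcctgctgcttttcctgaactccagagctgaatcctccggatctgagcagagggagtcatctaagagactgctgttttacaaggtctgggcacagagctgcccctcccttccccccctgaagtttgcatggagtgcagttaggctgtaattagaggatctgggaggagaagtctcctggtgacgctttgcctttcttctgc
Cd44: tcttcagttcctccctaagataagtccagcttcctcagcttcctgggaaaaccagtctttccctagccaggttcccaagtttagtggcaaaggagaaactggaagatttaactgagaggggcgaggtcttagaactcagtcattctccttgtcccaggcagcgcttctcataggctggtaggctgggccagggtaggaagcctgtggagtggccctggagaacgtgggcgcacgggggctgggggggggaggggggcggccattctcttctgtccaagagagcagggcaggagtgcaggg
The other pair, at chr13:49607765-49608064 and chr13:49544193-49544492 (both plus strand), belongs to Ogn, which was lower there, and to Aspn, which had lower values and was not called.
Ogn: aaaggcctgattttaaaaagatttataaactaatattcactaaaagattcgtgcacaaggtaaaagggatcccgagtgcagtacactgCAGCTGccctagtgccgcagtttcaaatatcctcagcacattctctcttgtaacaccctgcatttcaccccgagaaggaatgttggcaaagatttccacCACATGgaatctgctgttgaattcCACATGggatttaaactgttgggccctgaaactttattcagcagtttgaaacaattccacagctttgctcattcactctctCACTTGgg
Aspn: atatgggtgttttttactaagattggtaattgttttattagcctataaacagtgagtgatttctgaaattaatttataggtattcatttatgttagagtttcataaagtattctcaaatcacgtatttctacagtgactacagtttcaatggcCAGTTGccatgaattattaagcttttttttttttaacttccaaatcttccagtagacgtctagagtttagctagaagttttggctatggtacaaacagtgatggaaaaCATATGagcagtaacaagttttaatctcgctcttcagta
The motif stood 1 time in the Fmod window, 0 times in those of Hapln1 and Cd44, 4 times in that of Ogn and 2 times in that of Aspn. Of 32851 mouse promoter windows of this length, 72.3% held at least 1 E-box, with a median of 1. The sequence TATAAA was present on the printed strand in the windows of Ogn and Aspn and absent on both strands from those of Fmod, Hapln1 and Cd44, and 13.6% of all windows held it on either strand. A match is a description of letters and not a site. The table held 7 of the 10 members, and Dcn, Lum and Has2 are not shown.

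Barcodes were used when they had at least 500 detected genes and under 0.5% of counts from haemoglobin genes. This left 8601 barcodes, 4596 and 4005 in technical replicates 1 and 2, with a median of 5877.5 and 6074 counts. Of these, 7940 fell into 10 marker-gated classes. Fibroblast barcodes with at least 1 count of Scx or of Rspo3, a secreted Wnt agonist, formed the Scx/Rspo3-positive class of 97 barcodes (48 and 49), apart from 1122 other fibroblasts (602 and 520). Epicardium, the outer covering, held 55 barcodes (20 and 35). Endocardium, the lining of the chambers, held 257 and vascular endothelium 638. Pericytes numbered 208, smooth muscle cells 193 and macrophages 130. Atrial cardiomyocytes numbered 1462 and ventricular cardiomyocytes 3778, and their counts were 21.9% and 41.2% mitochondrial at the median, against 3.09% in Scx/Rspo3-positive and 3.19% in other fibroblasts. The libraries shared 31 barcode sequences among those used. The barcodes of technical replicate 2 carry another sample prefix than the identifier in its labels, and the library was taken as the technical replicate the labels name. Levels are given as CPM (summed counts of a gene scaled to 1000000 counts of its class). The 9 epicardial markers, which set that gate, summed to 5881 CPM in epicardium, against 323 CPM in other fibroblasts, mostly from Aldh1a2 and Tbx18. Cardiomyocyte transcripts were present in all classes, with 8 markers summing to between 780.1 and 1623 CPM in the 8 other classes, against 24102 CPM in atrial and 20522 CPM in ventricular cardiomyocytes, and their part in the results was not tested.

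The fibroblast classes had the highest summed level of these genes. The 10 genes together reached 10655 and 11534 CPM in the Scx/Rspo3-positive class in technical replicates 1 and 2, and 8310 and 8732 CPM in other fibroblasts. Epicardium followed at 4693 and 4011 CPM, pericytes at 1544 and 1547 CPM and smooth muscle at 1490.3 and 1403 CPM. Endocardium had 1133 and 1087 CPM and macrophages 290.2 and 239 CPM, while vascular endothelium had 119 and 156 CPM and the cardiomyocyte classes between 121 and 151 CPM. Of the 10 genes, 8 had their highest level over both replicates in a fibroblast class: Vcan, Hapln1, Has2, Dcn and Bgn in the Scx/Rspo3-positive class, and Lum, Ogn and Aspn in other fibroblasts. The same share over all genes was not recorded, so the 8 of 10 has no background to stand against. Lum changed place between the fibroblast classes from one replicate to the other, and Fmod did so between epicardium and Scx/Rspo3-positive fibroblasts. Cd44 was highest in macrophages in both.

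**Figure D1:**
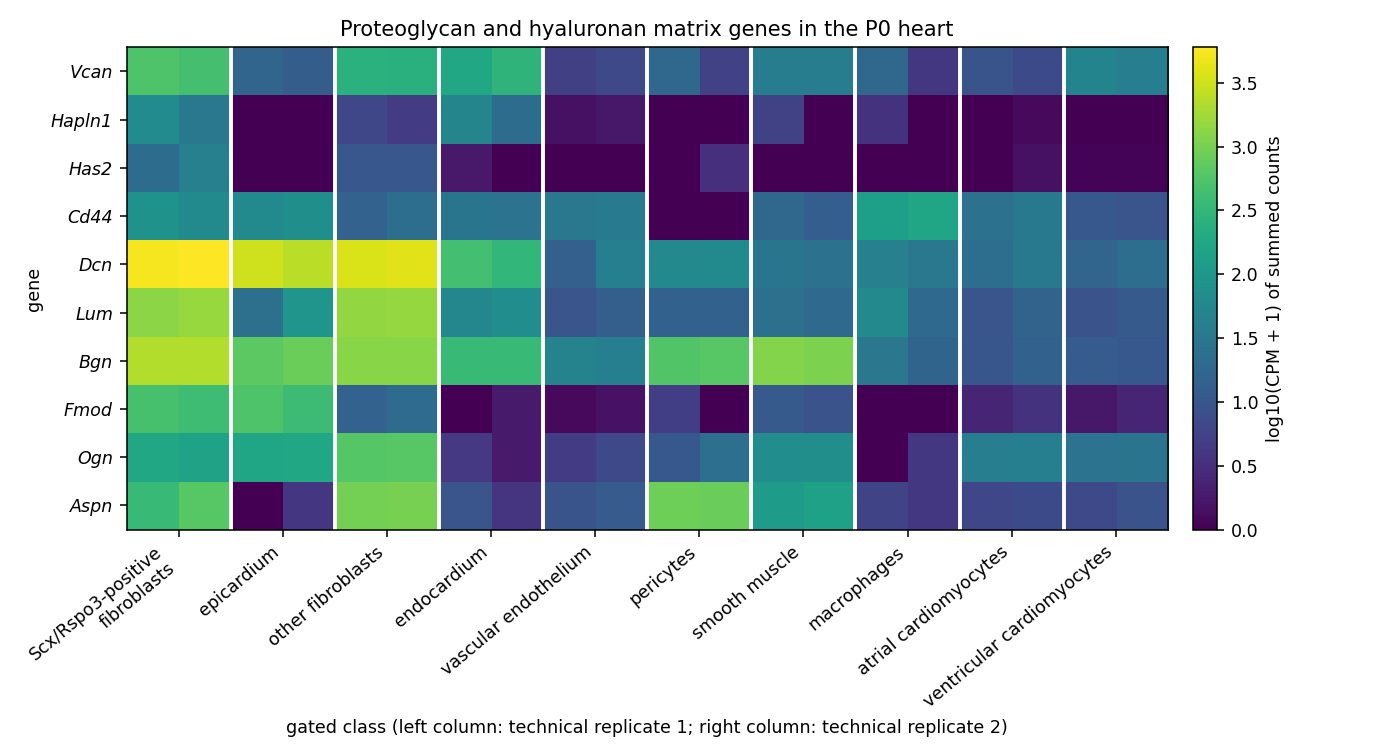
Level of each of the 10 genes (rows) in 10 gated classes (columns, 1 narrow column per technical replicate), as log10(CPM + 1) of summed counts. Dcn is brightest in the fibroblast classes and epicardium, Fmod is bright in the Scx/Rspo3-positive fibroblasts and epicardium and dark in other fibroblasts, and Aspn is bright in other fibroblasts and pericytes and dark in epicardium.

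The Scx/Rspo3-positive fibroblasts had more Fmod, Hapln1, Cd44 and Has2 and less Ogn than other fibroblasts. A gene was called different when both technical replicates gave at least a 2-fold ratio in the same direction with at least 20 counts over the 2 classes in each. By this rule 4 of the 10 genes were higher and 1 was lower, against 2.58% of 9639 genes higher and 3.14% lower. The median log2 ratio was 0.89 over the 10 genes and -0.01 over all genes tested. Depth was close, with a median of 5243 counts in Scx/Rspo3-positive and 5621.5 counts in other fibroblasts.

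Fmod, whose product binds collagen fibrils, had 483 and 402.5 CPM in the Scx/Rspo3-positive fibroblasts of technical replicates 1 and 2, against 14.6 and 20.1 CPM in other fibroblasts. The ratio was 25.6 (20.4 to 32.4), and the replicate values of the 2 classes lay far apart. Hapln1 had 65.6 and 32.1 CPM in the Scx/Rspo3-positive class, against 5.44 and 3.57 CPM in other fibroblasts, a ratio of 10.4 (5.89 to 18.4) that rested on 25 and 30 counts. Cd44 had 81.9 and 64.1 CPM in the Scx/Rspo3-positive class, against 14.3 and 22.04 CPM in other fibroblasts, a ratio of 4.04 (2.72 to 5.86). Has2 had 20.5 and 42.8 CPM in the Scx/Rspo3-positive class, against 9.74 and 9.72 CPM in other fibroblasts. Its ratio of 3.33 (1.83 to 5.75) rested on 17 and 64 counts, and was 2.104 in technical replicate 1 and 4.40 in technical replicate 2. All 4 genes thus stood higher in the Scx/Rspo3-positive class in both replicates, with the least certainty for Has2.

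Ogn, whose product is also called mimecan, had 184 and 149.6 CPM in the Scx/Rspo3-positive class, against 599.7 and 619 CPM in other fibroblasts. The ratio was 0.272 (0.218 to 0.337). Its neighbour Aspn had 365 and 616 CPM in the Scx/Rspo3-positive class, against 977 and 1004 CPM in other fibroblasts, a ratio of 0.504 (0.444 to 0.571) that passed 2-fold only in technical replicate 1. In the Scx/Rspo3-positive class, the 5 barcodes with the most counts held 51.7% of the 87 Ogn counts and 43.5% of the 262 Aspn counts. Vcan just missed the rule, with 545 and 467 CPM in the Scx/Rspo3-positive class, against 259 and 248 CPM in other fibroblasts, a ratio of 1.98 (1.73 to 2.26).

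The abundant members differed less. Bgn had 2204 and 2212 CPM in the Scx/Rspo3-positive class, against 1269 and 1276 CPM in other fibroblasts, a ratio of 1.74 (1.63 to 1.85). Dcn had 5399 and 5991 CPM in the Scx/Rspo3-positive class, against 3682 and 3996 CPM in other fibroblasts, a ratio of 1.49 (1.44 to 1.55). Lum had 1307 and 1557 CPM in the Scx/Rspo3-positive class, against 1478 and 1534 CPM in other fibroblasts, and its ratio of 0.958 (0.888 to 1.03) was compatible with no difference. For Lum the replicates did not share a direction.

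**Figure D2:**
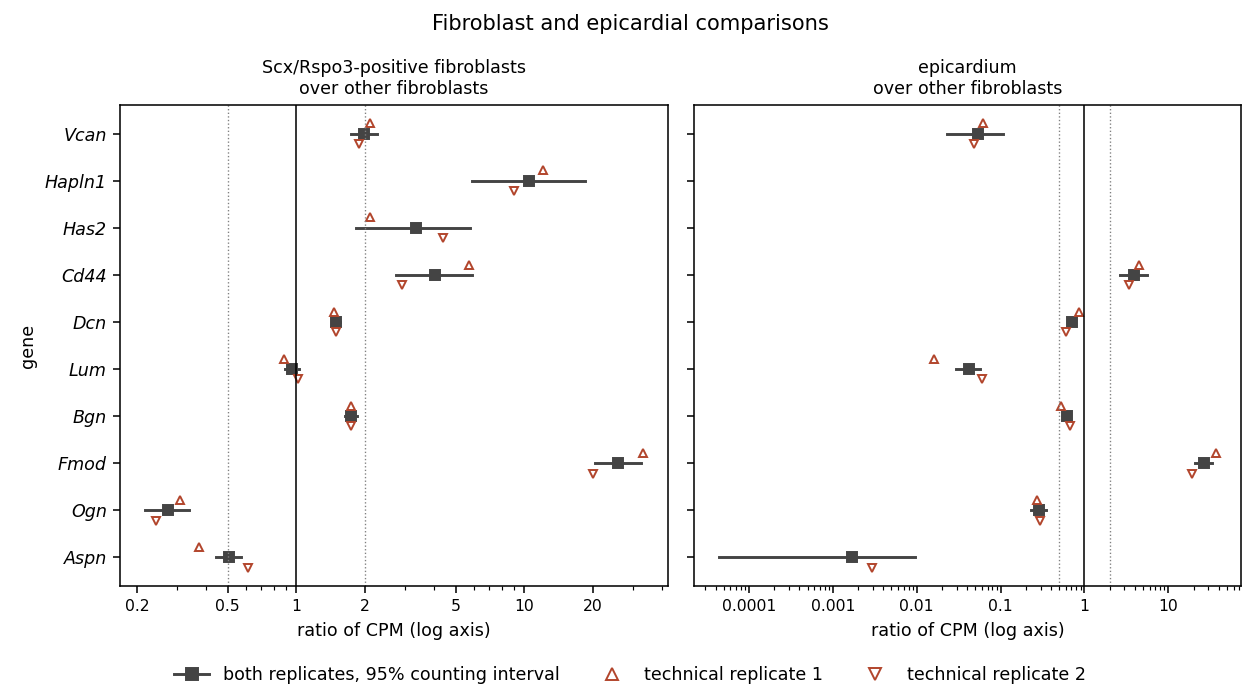
Ratio of CPM (log axis) for each gene in Scx/Rspo3-positive fibroblasts over other fibroblasts (left) and in epicardium over other fibroblasts (right), with squares and lines for both technical replicates with the 95% counting interval, triangles for single replicates and dotted lines at 2-fold. Fmod lies at 25.6 on the left and 26.3 on the right, while Lum lies at 0.958 on the left and 0.0418 on the right; Hapln1 and Has2 had 0 counts in epicardium and are not drawn there, and the Aspn value there rests on 1 count.

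The shares of barcodes with a count were compared at equal depth. After each barcode was thinned at random to 2000 counts, Fmod had a count in 36.1% of Scx/Rspo3-positive fibroblasts (26.6 to 46.5, n = 97), against 2.36% of other fibroblasts (1.55 to 3.44, n = 1102, with 20 shallower barcodes left out). Before thinning these shares were 54.6% and 4.55%. Thinned macrophages, taken as a class that should lack the gene, had Fmod in 0 of 126 barcodes, which allows a share of up to 2.38%, and vascular endothelium had it in 0.157%. The median depths of these 2 classes before thinning were 4919 and 9848 counts. Ogn was found in 14.4% of thinned Scx/Rspo3-positive fibroblasts (8.12 to 23.0), against 57.2% of other fibroblasts (54.2 to 60.1). Aspn was found in 37.1% (27.5 to 47.5), against 70.8% (68.0 to 73.5) of other fibroblasts. Dcn had a count in 99.0% of thinned Scx/Rspo3-positive fibroblasts, against 93.9% of other fibroblasts, so nearly every fibroblast barcode of both classes held it. Hapln1 was found in 9.28% of thinned Scx/Rspo3-positive fibroblasts (4.33 to 16.9), against 0.635% of other fibroblasts (0.256 to 1.30). Cd44 was found in 9.28% (4.33 to 16.9), against 3.09% of other fibroblasts (2.15 to 4.29). Has2 was found in 5 and 23 barcodes, 5.16% of Scx/Rspo3-positive fibroblasts (1.70 to 11.6), against 2.09% of other fibroblasts (1.33 to 3.12). The intervals of Has2 overlapped, so its difference was not detectable per barcode at this depth.

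**Figure D3:**
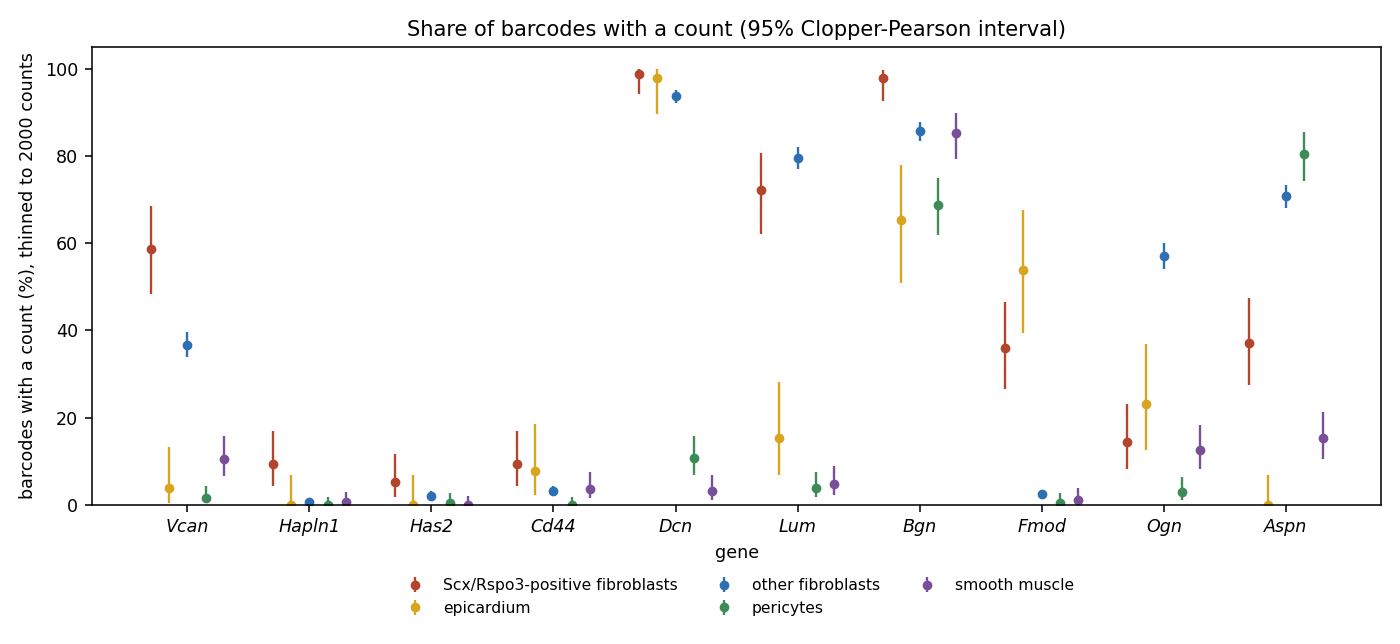
Percentage of barcodes with at least 1 count of each gene after thinning to 2000 counts, in 5 mesenchymal and epicardial classes, with 95% Clopper-Pearson intervals. Fmod separates the Scx/Rspo3-positive fibroblasts (36.1%) and epicardium (53.9%) from the other fibroblasts (2.36%), and Aspn is most often found in pericytes (80.5%).

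Within all thinned fibroblasts, barcodes with Fmod differed from those without it in some of the other members. For Hapln1, Has2, Cd44, Dcn and Lum the intervals overlapped. Of 61 barcodes with Fmod, 24.6% held Ogn (14.5 to 37.3), against 55.3% of 1138 barcodes without Fmod (52.3 to 58.2). Aspn was in 49.2% of barcodes with Fmod (36.1 to 62.3), against 69.1% of those without (66.3 to 71.8). Bgn was in all 61 barcodes with Fmod, against 86.0% of those without. Vcan was in 54.1% of barcodes with Fmod (40.85 to 66.9), against 37.6% of those without (34.8 to 40.5). Of the 61 barcodes, 35 were Scx/Rspo3-positive, so these shares in part repeat the difference between the classes. Within the other fibroblasts alone, Ogn was in 38.5% of 26 barcodes with Fmod (20.2 to 59.4), against 57.6% of 1076 without (54.6 to 60.6). Aspn was in 65.4% of those 26 (44.3 to 82.8), against 70.9% (68.1 to 73.6). For both genes the intervals within other fibroblasts overlapped. Ogn and Aspn were found together within the other fibroblasts, with Aspn in 76.2% of barcodes with Ogn (72.7 to 79.5), against 63.6% of those without Ogn (59.0 to 67.9). Cells of 1 sample are not replicates, so these shares describe the barcodes at hand.

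Scx and Rspo3 were counted in only partly the same barcodes. Of the 97 barcodes, 47 had a single count of the 2 genes together and could not show both, so whether the cells differ cannot be told. Fibroblasts with both genes numbered 21, those with Scx and no Rspo3 numbered 44, and those with Rspo3 and no Scx numbered 32. Fmod stood at 391 CPM with both, 623 CPM with Scx alone and 240.2 CPM with Rspo3 alone, against 17.2 CPM with neither. Aspn stood at 191.5 CPM with both, 801 CPM with Scx alone and 332 CPM with Rspo3 alone, against 990 CPM with neither, so it was close to the level of other fibroblasts in the Scx-only barcodes. A few barcodes carried much of the Aspn in these small sets, as given above. Hapln1 was 104 CPM (55.2 to 177) with both, 35.6 CPM with Scx alone and 22.9 CPM with Rspo3 alone, against 4.56 CPM with neither. The fibroblast factor Tcf21 had 0 counts in the barcodes with both, 205 CPM with Scx alone and 223 CPM with Rspo3 alone, against 594 CPM with neither. Tnmd, a tendon marker, had 0 counts in all 4 sets, and Sox9, which encodes a factor of valve and cartilage cells, stood between 260.3 and 396 CPM.

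**Figure D4:**
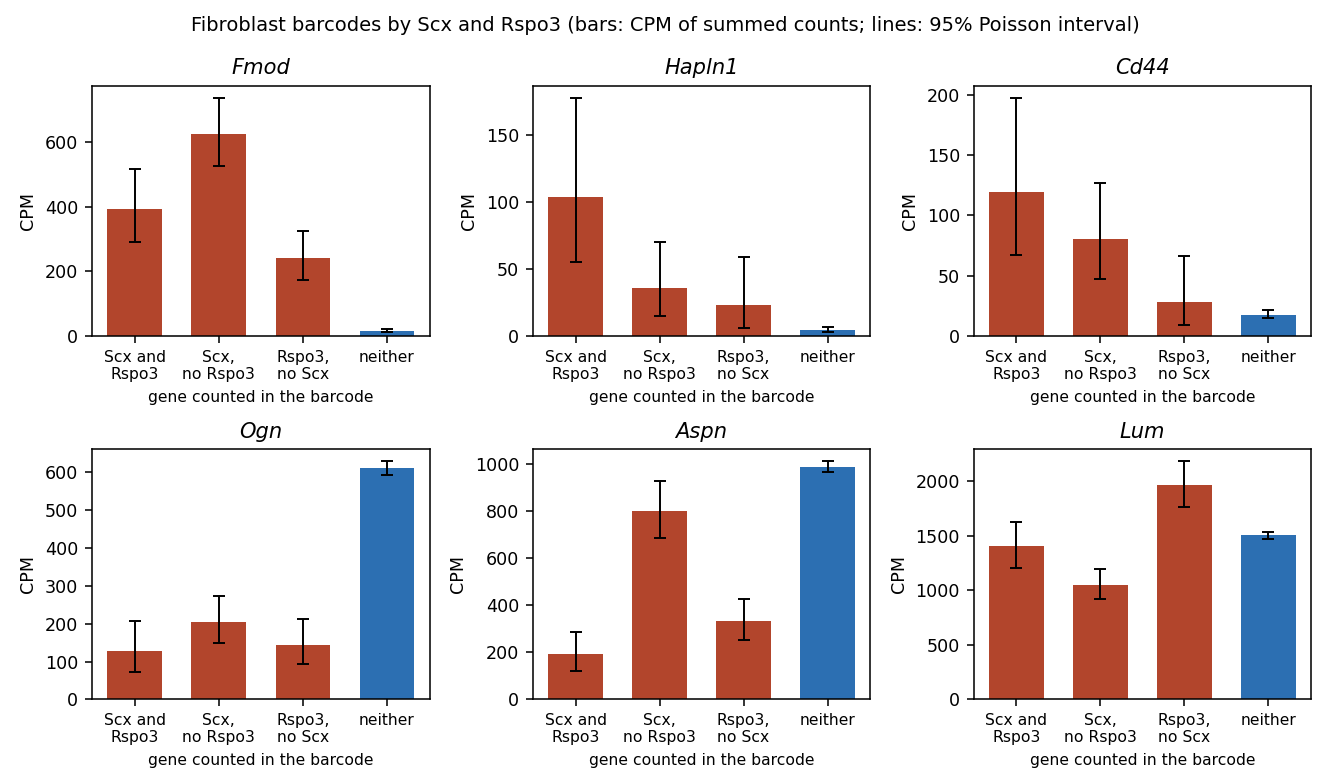
CPM of 6 member genes in fibroblast barcodes with Scx and Rspo3 (21), Scx without Rspo3 (44), Rspo3 without Scx (32) and neither (1122), as bars of summed counts from 0 with 95% Poisson intervals. Fmod is highest at 623 CPM with Scx alone and Ogn is highest at 609 CPM with neither, while Aspn at 801 CPM with Scx alone comes near the 990 CPM of barcodes with neither.

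The division rests on sparse counts. Of the 97 Scx/Rspo3-positive barcodes, 47 had a single count of the 2 genes together. Scx also had a count in 5.59% of ventricular cardiomyocytes (1.76% after thinning) and in 0 of 208 pericytes, and Rspo3 in 0.476% of ventricular cardiomyocytes. With 2 counts required, the log2 ratio of Fmod was 3.93, and with Rspo3 alone as the marker it was 3.03, against 4.68 with either gene. Fibroblasts that missed the changed rule joined the other fibroblasts, which then numbered 1169 and 1166, against 1122. Both sides of these ratios thus changed.

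Of 75 measured genes of the wider pathway, 42 had enough counts in the fibroblast comparison. By the same rule 2.58% of all genes tested were higher and 3.14% lower there. Of the 42, 3 passed in each direction. Higher in the Scx/Rspo3-positive class were Chst11, a chondroitin sulphotransferase gene, with 24.6 and 14.2 CPM against 4.58 and 5.83 CPM in other fibroblasts (ratio 3.69, 1.62 to 7.63), Xylt1, which starts glycosaminoglycan chains (2.64, 1.54 to 4.31), and the syndecan gene Sdc4 (2.38, 1.87 to 2.99). The versican-cleaving protease gene Adamts5 had 28.7 and 39.2 CPM in the Scx/Rspo3-positive class, against 204 and 204 CPM in other fibroblasts, a ratio of 0.168 (0.0993 to 0.267). The related Adamts4 was lower at a ratio of 0.220 (0.0449 to 0.653), and the glypican gene Gpc6 at 0.353 (0.273 to 0.451).

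Epicardium held Dcn, Bgn, Fmod and Ogn, almost no Aspn, and far less Lum and Vcan than other fibroblasts. Against other fibroblasts, 2 of the 9 members tested were higher and 4 lower, where 7.9% of 9811 genes tested were higher and 7.24% lower. The median log2 ratio of the 9 members tested was -0.93, a value set by Has2 at its lower limit of detection, and that of all genes was -0.07. Fmod had 544 and 382 CPM in epicardium, against 14.6 and 20.1 CPM in other fibroblasts, a ratio of 26.3 (21.0 to 33.1). Its level in epicardium was 1.03 times that in the Scx/Rspo3-positive fibroblasts (0.857 to 1.23). It was found in 48 of 55 epicardial barcodes, and 38.7% of its 266 counts came from the 5 barcodes with the most. Cd44 had 63.5 and 74.1 CPM in epicardium, against 14.3 and 22.04 CPM in other fibroblasts, a ratio of 3.88 (2.65 to 5.58). It was found in 20 of 55 epicardial barcodes, and 56.1% of its 41 counts came from 5 barcodes.

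Lum had 23.8 and 91.9 CPM in epicardium, against 1478 and 1534 CPM in other fibroblasts, a ratio of 0.0418 (0.0294 to 0.0576), and 64.9% of its 37 counts came from 5 barcodes. Aspn had 0 and 1 count in epicardium, against 3411 and 3098 counts in other fibroblasts, a ratio of 0.0017 (4.3e-05 to 0.0096). Vcan had 15.9 and 11.9 CPM in epicardium, against 259 and 248 CPM in other fibroblasts, a ratio of 0.0535 (0.0231 to 0.106). Ogn had 163 and 181 CPM in epicardium, against 599.7 and 619 CPM in other fibroblasts, a ratio of 0.284 (0.231 to 0.346). Dcn stayed abundant, at 3208 and 2404 CPM in epicardium, against 3682 and 3996 CPM in other fibroblasts (ratio 0.718, 0.682 to 0.755). Bgn had 675 and 863 CPM in epicardium, against 1269 and 1276 CPM in other fibroblasts (ratio 0.615, 0.559 to 0.675). Hapln1 and Has2 had 0 counts in epicardium, which at 3 counts allows up to 5.09 CPM, so a level like that of other fibroblasts could not be told apart for Hapln1.

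The 8 fibroblast markers summed to 15510 and 15730 CPM in epicardium, against 20846 and 21530 CPM in other fibroblasts, mostly from Col1a1, Col1a2 and Col3a1. The markers Dpt, Postn and Pdgfra stood at 5.09, 5.09 and 6.79 CPM in epicardium, and Aspn at 1 count. The 8 fibroblast markers were used in the gate, so their levels in epicardium were in part fixed by it. With a stricter gate of 43 epicardial barcodes, Cd44 was no longer called and Bgn was called lower, with log2 ratios of 1.74 and -1.26. The ratio of Lum was 0.0161 in technical replicate 1 and 0.0599 in technical replicate 2, and the log2 ratio of Aspn, on 1 count, lay between -10.99 and -6.36 over the alternatives, with 0 counts set at 3.

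In epicardium over other fibroblasts, 7 of 41 tested pathway genes were higher and 13 lower, against 7.9% and 7.24% of all genes tested. Podn, which encodes the leucine-rich proteoglycan podocan, had 159 and 88.9 CPM in epicardium, against 1.15 and 0.972 CPM in other fibroblasts, a ratio of 112 (51.4 to 288). Sdc4 (5.69), the agrin gene Agrn (5.47), the glypican gene Gpc3 (5.00) and the protease gene Adamts9 (4.28) were the next highest. Ecm2, the neighbour of Aspn, had 0 counts in epicardium, against 69.9 and 61.3 CPM in other fibroblasts. The syndecan gene Sdc3 (0.0272), Gpc6 (0.0329), the hyaluronan-binding gene Tnfaip6 (0.0373) and Tsku (0.0473) were the other genes with the lowest ratios.

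In endocardium Vcan stood near the level of other fibroblasts and below that of Scx/Rspo3-positive ones, and Hapln1 exceeded that of other fibroblasts. Against vascular endothelium 5 of the 8 members tested were higher and 0 lower, where 9.61% of 10352 genes tested were higher and 6.25% lower. The median log2 ratio was 2.77 over the 8 members tested and 0.12 over all genes. Vcan had 185.5 and 288 CPM in endocardium, against 4.23 and 5.72 CPM in vascular endothelium, a ratio of 47.5 (34.4 to 67.2). Other fibroblasts had 1.08 times the endocardial level (0.982 to 1.19), but the replicates went opposite ways. Endocardium had 185.5 CPM (162 to 211), against 259 CPM (243 to 277) in other fibroblasts, in technical replicate 1. It had 288 CPM (258 to 321), against 248 CPM (230.4 to 266), in technical replicate 2, so the order of these neighbours was not settled. Dcn had 443 and 315.5 CPM in endocardium, against 13.6 and 41.4 CPM in vascular endothelium, a ratio of 14.2 (12.3 to 16.6) that was 32.5 in technical replicate 1 and 7.63 in technical replicate 2. Bgn had 356 and 362.5 CPM in endocardium, against 47.7 and 41.4 CPM in vascular endothelium (8.04, 7.10 to 9.12). Lum had 55.3 and 70.0 CPM in endocardium, against 8.94 and 12.7 CPM in vascular endothelium (5.80, 4.42 to 7.66). Cd44 had 28.5 and 26.6 CPM in endocardium, against 31.5 and 36.4 CPM in vascular endothelium, with a ratio of 0.815 (0.612 to 1.07) that did not separate the classes. Fibroblast markers moved with these genes, with sums of 1088 and 958 CPM in endocardium, against 143 and 231 CPM in vascular endothelium, and their part in the result was not tested.

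Hapln1 had 51.3 and 20.4 CPM in endocardium, against 0.470 and 0.780 CPM in vascular endothelium, a ratio of 59.1 (24.4 to 187) that was 109 in technical replicate 1 and 26.1 in technical replicate 2. All 86 counts came from 21 of 257 endocardial barcodes, 12 and 9 in technical replicates 1 and 2, and 60.5% came from 5 of them. These 21 barcodes had a median depth of 16723 counts, against 6952.5 counts in the other 236. In them the transcription factor genes Prox1 and Foxc2 stood at 746.5 and 300 CPM, against 67.5 and 74.6 CPM in the other endocardial barcodes. Pdgfra, a receptor gene of mesenchyme, stood at 754 CPM in them, against 9.64 CPM in the others, and Npr3, an endocardial marker used in the gate, at 137 CPM, against 949 CPM. Dcn was at 703 CPM, against 319 CPM, while Bgn was at 74.9 CPM, against 415 CPM. In vascular endothelium Npr3 stood at 3.335 CPM. Plvap, also an endocardial marker of the gate, stood at 90.4 CPM in the 21, 429.4 CPM in the other endocardial and 11.6 CPM in vascular barcodes. Fabp4, a vascular marker of the gate, stood at 126.6, 302 and 12884.5 CPM in the same order. These markers helped to set the split. The endothelial genes Pecam1 and Cdh5 were counted in 21 and 20 of the 21. Of the 5 lymphatic markers, Prox1 was counted in 14 of the 21, Flt4 in 7, Mmrn1 in 2 and Ccl21a and Reln in 0. In the other 236 barcodes these 5 markers were counted in 78, 54, 4, 4 and 2.

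The placement of these barcodes decided the Hapln1 result. Endothelial barcodes were split by an endocardial score less a vascular score at -0.9, and 63 of the 257 endocardial barcodes, with 73 of the 86 Hapln1 counts, scored between this value and 0. With the split at 0 the log2 ratio of Hapln1 was -0.19 instead of 5.89, that of Vcan was 3.58 instead of 5.57 and that of Dcn was 2.73 instead of 3.83. After thinning, Hapln1 was found in 1.95% of endocardial barcodes (0.637 to 4.50, n = 256), against 0 of 635 vascular barcodes (upper limit 0.579%). Before thinning these shares were 8.17% of endocardial barcodes, against 5 of 638 vascular barcodes, or 0.784%.

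In endocardium over vascular endothelium, 11 of 41 tested pathway genes were higher and 5 lower, against 9.61% and 6.25% of all genes tested. The hyaluronan receptor gene Lyve1 had 87.9 and 197 CPM in endocardium, against 2.82 and 0.260 CPM in vascular endothelium, a ratio of 87.2 (50.3 to 166). Cemip2, whose product degrades hyaluronan, had 596 and 518 CPM in endocardium, against 45.4 and 45.3 CPM in vascular endothelium, a ratio of 12.3 (10.96 to 13.9). The protease gene Adamts8 (6.56), Sdc1 (5.55) and Sdc4 (4.77) followed. Lower were the endothelial proteoglycan gene Esm1 (0.0414), Xylt1 (0.129), Gpc4 (0.153), the intracellular proteoglycan gene Srgn (0.173) and Chst11 (0.293). Of the endocardial barcodes, 6 had at least 3 of 5 lymphatic markers, and leaving such barcodes out of both classes changed no call among the members.

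**Figure D5:**
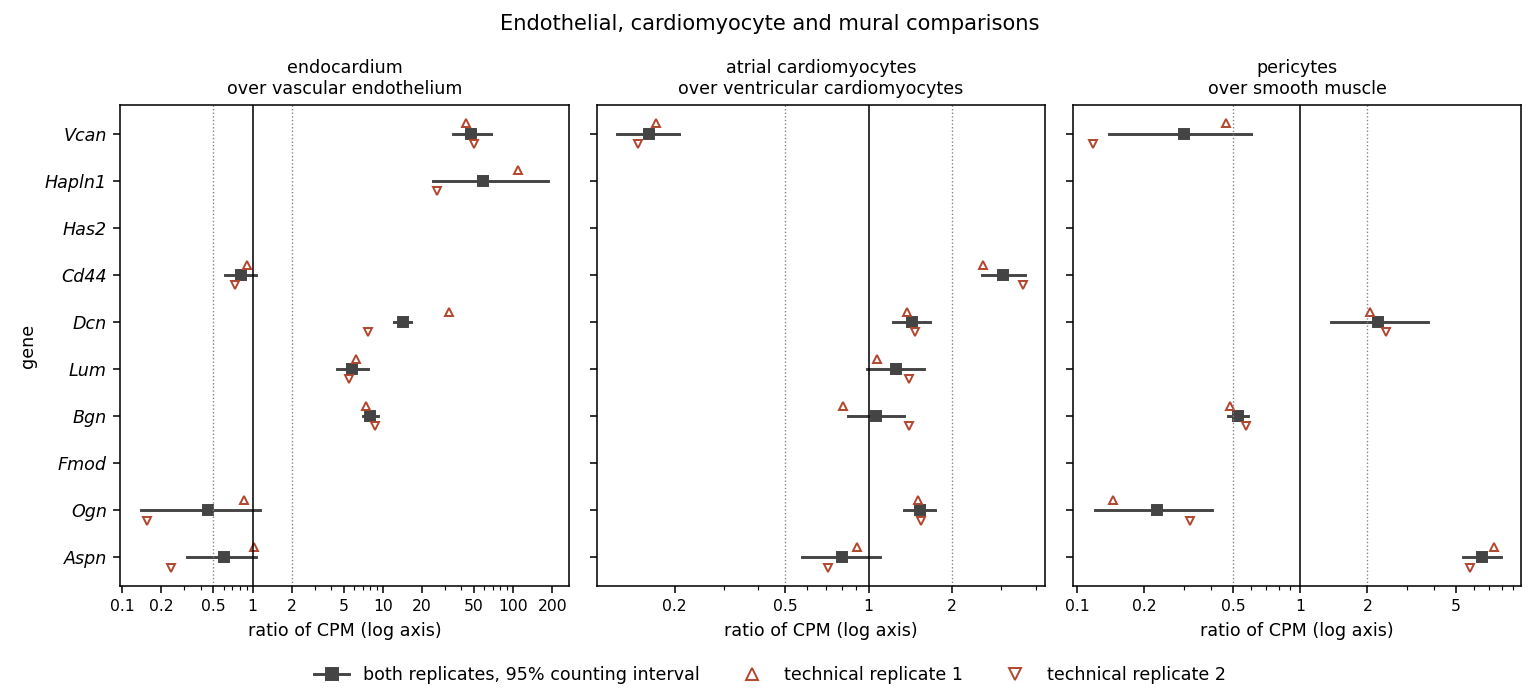
Ratio of CPM (log axis) for each tested gene in endocardium over vascular endothelium, atrial over ventricular cardiomyocytes and pericytes over smooth muscle, with squares and lines for both technical replicates with the 95% counting interval, triangles for single replicates and dotted lines at 2-fold. Vcan is at 47.5 in the left panel and 0.161 in the middle one, and Aspn is at 6.50 in the right one; genes with too few counts or 0 counts in a class are not drawn.

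In atrial cardiomyocytes Vcan was lower and Cd44 higher than in ventricular ones. Vcan had 8.55 and 5.98 CPM in atrial cardiomyocytes, against 49.7 and 40.5 CPM in ventricular cardiomyocytes, a ratio of 0.161 (0.124 to 0.207). Ventricular Vcan was spread over 620 of 3778 barcodes, with 238 counts per 100 counts of Dcn there and 6.63 per 100 in other fibroblasts. After thinning it was found in 1.39% of atrial cardiomyocytes, against 7.14% of ventricular cardiomyocytes. Cd44 had 25.4 and 32.4 CPM in atrial cardiomyocytes, against 9.85 and 9.01 CPM in ventricular cardiomyocytes, a ratio of 3.05 (2.55 to 3.65). These were 1 of the 7 members tested higher and 1 lower, where 8.68% of 11289 genes tested were higher and 2.1% lower. The median log2 ratio of all genes was 0.40 and that of the 7 members tested was 0.32. Mitochondrial counts moved with the classes, and on a total that leaves out mitochondrial and haemoglobin transcripts the log2 ratio of Cd44 was 1.24 instead of 1.61. The ratio of Vcan was 0.0606 with barcodes limited to 20% mitochondrial counts, which left 590 atrial and 318 ventricular barcodes, and 0.31 with the globin limit at 5%.

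Ogn had more counts than Dcn in both cardiomyocyte classes. It had 39.8 and 42.1 CPM in atrial cardiomyocytes, against 26.3 and 27.3 CPM in ventricular cardiomyocytes, a ratio of 1.53 (1.34 to 1.73) that was not called. Per 100 counts of Dcn, Ogn had 150 counts in atrial and 140.7 in ventricular cardiomyocytes, against 15.9 in other fibroblasts. For Lum the same figures were 42.7 and 48.8, against 39.3 in other fibroblasts, and for Aspn they were 20.7 and 37.0, against 25.8. For Bgn they were 42.3 and 56.9, against 33.2. For Fmod they were 7.32 and 5.67 on 18 and 28 counts, against 0.449 in other fibroblasts. Relative to Dcn, Ogn and Fmod thus stood further above their level in other fibroblasts than Lum, Bgn and Aspn did. For Fmod the cardiomyocyte figures did not exceed those of Scx/Rspo3-positive fibroblasts (7.7) or epicardium (16.4). With the globin limit raised to 5%, 6 of the 10 genes were called higher in atrial cardiomyocytes, among them Dcn at a log2 ratio of 1.69, against 0.52 at the limit used. The raised limit gave 2433 atrial and 4207 ventricular barcodes, against 1462 and 3778. The share of all genes called at that limit was not recorded, so the 6 of 10 has no background to stand against.

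In atrial over ventricular cardiomyocytes, 12 of 39 tested pathway genes were higher and 0 lower, against 8.68% and 2.1% of all genes tested. Podn had 38.7 and 38.6 CPM in atrial cardiomyocytes, against 0.441 and 0.730 CPM in ventricular cardiomyocytes, a ratio of 66.8 (39.97 to 121). The neurocan gene Ncan (59.4, 19.4 to 296), Adamts8 (43.8, 34.0 to 57.3), Xylt1 (17.9, 10.5 to 32.6) and Tnfaip6 (11.2, 5.70 to 24.2) followed. Podn was thus called higher both in epicardium over other fibroblasts and in atrial over ventricular cardiomyocytes.

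Pericytes had more Aspn and less Ogn than smooth muscle. Aspn had 866 and 821 CPM in pericytes, against 117 and 143 CPM in smooth muscle, a ratio of 6.50 (5.37 to 7.93). It was found in 192 of 208 pericytes, and its level there was the second highest of the 10 classes, with other fibroblasts 1.17 times higher (1.09 to 1.26). Dcn had 58.2 and 60.1 CPM in pericytes, against 3682 and 3996 CPM in other fibroblasts, and pericytes held 1431 counts of Aspn per 100 counts of Dcn, against 25.8 per 100 in other fibroblasts. Ogn had 10.0 and 23.1 CPM in pericytes, against 69.3 and 72.3 CPM in smooth muscle, a ratio of 0.227 (0.121 to 0.402). Vcan had 18.1 and 4.63 CPM in pericytes, against 39.0 and 39.3 CPM in smooth muscle, a ratio of 0.302 (0.139 to 0.605) on 11 and 37 counts. Bgn was the chief member in smooth muscle by counts, with 574 and 622 CPM in pericytes, against 1180.5 and 1085 CPM in smooth muscle (0.527, 0.475 to 0.584), and was not called.

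In this comparison 2 of the 5 members tested were higher and 2 lower, where 6.71% of 5771 genes tested were higher and 6.34% lower. The median log2 ratio was -0.92 over the 5 members tested and 0.19 over all genes. The other higher gene, Dcn, had 58.2 and 60.1 CPM in pericytes, against 28.2 and 24.8 CPM in smooth muscle, a ratio of 2.24 (1.37 to 3.74). It lost the call with the globin limit at 5% and with a stricter gate, at log2 ratios of 0.67 and 0.86. With technical replicate 2 left out and the barcodes gated anew, its log2 ratio was 0.39. Fibroblast markers summed to 1656 and 2156 CPM in pericytes, against 3505 and 2543 CPM in smooth muscle. Of 24 tested pathway genes 2 were higher, Xylt2 (3.29) and Ecm2 (3.25), and 5 lower. The aggrecan gene Acan had 0 and 2.31 CPM in pericytes, against 286 and 384 CPM in smooth muscle, a ratio of 0.0032 (8.1e-05 to 0.0179). Ptprz1 had 0 counts in pericytes, against 75.8 and 88.8 CPM in smooth muscle.

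Cd44 was the member with its highest level outside fibroblasts and epicardium. Macrophages had 134 and 165 CPM, 2.04 times (1.40 to 3.04) the Scx/Rspo3-positive fibroblasts, which were followed by epicardium with no separation from it (1.04, 0.651 to 1.66). Pericytes had 0 counts of Cd44, which at 3 counts allows up to 3.22 CPM. After thinning, Cd44 was found in 19.0% of macrophages (12.6 to 27.0), against 9.28% of Scx/Rspo3-positive fibroblasts (4.33 to 16.9). Macrophage values of Lum and Dcn came largely from 1 barcode, which held 75.9% of the 29 Lum counts and 51.9% of the 27 Dcn counts. Has2, by contrast, had at most 2 counts in each class outside the fibroblasts.

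The order of the classes was firm at the top for some members and not for others. Hapln1 in the Scx/Rspo3-positive fibroblasts was 1.31 times its endocardial level (0.801 to 2.06), so these classes were not separated. Endocardium had 7.999 times the Hapln1 level of other fibroblasts (5.22 to 12.6), with the limit on its placement given above. Ventricular Vcan was 1.16 times that of smooth muscle (0.836 to 1.65), and the classes below epicardium were not separated from their neighbours for this gene. For Bgn each class but the lowest pair, the cardiomyocytes, was separated from its neighbour, with other fibroblasts 1.13 times smooth muscle (1.055 to 1.2). Ogn in epicardium was 1.04 times that in Scx/Rspo3-positive fibroblasts (0.777 to 1.41), and smooth muscle followed, with those fibroblasts 2.34 times higher (1.68 to 3.27). Dcn was separated down to pericytes, below which no neighbours were.

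The technical replicates gave the size of the spread. Over 52 values of a gene in a class with at least 50 counts, the ratio of replicate 1 to replicate 2 lay between 0.330 and 2.52, and the counting interval left out 1 in 17 of them. The extremes were Dcn in vascular endothelium at 0.330 (0.240 to 0.448) and Hapln1 in endocardium at 2.52 (1.54 to 4.25). Of vascular Dcn, 46.5% came from 5 barcodes. Among the values used above, Aspn in Scx/Rspo3-positive fibroblasts also differed between replicates, at 0.592 (0.453 to 0.768). The intervals of single ratios are therefore narrower than the spread between technical replicates for these genes.

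The genes with the profile most like each member were taken by Pearson's r of log2(CPM + 5) over 20 points, the 10 classes in both replicates, among 11117 genes. The points share libraries and the 2 replicates of a class repeat each other, so r is a description. Bgn was closest to P3h3, Mfap2 and Mxra8 (r of 0.972, 0.966 and 0.963), and Has2 to Car3, Ssc5d and Ptx3 (0.971, 0.949 and 0.947). Fmod was closest to 1500015O10Rik, Aldh1a1 and Abi3bp (0.966, 0.959 and 0.938), and Aspn to Fap, Kcne4 and Cyth3 (0.960, 0.958 and 0.955). Dcn was closest to Fndc1, Vegfd and Lefty1 (0.951, 0.947 and 0.934), and Lum to Prelp, Itih5 and Tpbg (0.946, 0.933 and 0.930). Ogn was closest to Fzd2, Igdcc4 and Gpr153 (0.925, 0.919 and 0.912), Hapln1 to Ahsg, Fbxl18 and Tanc2 (0.902, 0.894 and 0.893), Vcan to Pdgfra, Pknox2 and 6330403K07Rik (0.875, 0.870 and 0.864) and Cd44 to St3gal5, Galns and Tgfbr1 (0.857, 0.843 and 0.839). Pdgfra was used in the fibroblast gate.

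Between members, r was highest for Has2 and Lum at 0.88 and for the neighbours Dcn and Lum at 0.86. The neighbours Hapln1 and Vcan had r of 0.81 and the neighbours Aspn and Ogn 0.52. It was lowest for Cd44 and Aspn at -0.46, and Fmod and Aspn had 0.20. Of the 3 neighbouring pairs, Aspn and Ogn were thus the least alike over the classes.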

How the data were processed

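The authors deposited 1 matrix of raw whole-number counts for each technical replicate, with genes in rows and barcodes in columns. Per the submitters' processing notes, Cell Ranger 2.1.0 and mm10 were used. Whether a count is a molecule or a read is not given in the sources used here. Feature IDs were paired with symbols for 27645 of 27999 features, and coordinates came from GENCODE on GRCm38. Barcodes with at least 500 genes and under 0.5% haemoglobin counts were gated by mean log marker scores, each relative to its type's median. The leading score had to be at least 1.25 times the next, and 165 mixed and 450 untyped barcodes were left out. No doublet caller was run. For each class, counts were added up within a technical replicate and scaled to CPM of all its counts. Gate thresholds, the split of endothelium and the comparison of pericytes with smooth muscle were chosen after the data were seen, and the members and gene lists with earlier results of these data known. The genes named are the members, up to 5 called pathway genes in each direction with the largest ratio, and the 3 most alike in profile to each member. Intervals are exact Poisson, conditional binomial for ratios and Clopper-Pearson for shares, and cover counting error only. A class with 0 counts was set at 3 counts for the 2-fold rule. The rule was run on simulated Poisson counts, which hold no spread between replicates beyond counting error. Changes were set only in genes with at least 20 expected counts per class and replicate. Members with few counts, such as Hapln1 and Has2, were thus not covered. Totals were 34668956 and 33871582 counts. Alternatives covered the scale, barcode filters, gates and single replicates. Scripts ran under Python 3.11.15 with pandas 2.3.3, scipy 1.17.1, matplotlib 3.10.9 and numpy 2.4.6.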

Additional observations from a re-analysis of the deposited data

Results flagged for a closer look

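Cd44 was present in a class too small to be compared. The 12 barcodes gated as monocytes and granulocytes held 13 counts of it, a level of 286 CPM (152 to 489), while 17 T and NK cell barcodes and 9 B cell barcodes held 0 counts. Barcodes left out for their haemoglobin counts also carried the matrix genes. The 3148 barcodes with at least 500 genes and haemoglobin at or over the limit had 1033 CPM of the 10 genes together (1012 to 1054), of which Dcn gave 457 CPM, Bgn 174.5 CPM, Lum 162 CPM and Aspn 115 CPM, and no class was assigned to them.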

How the results depend on the processing

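No paired analysis was possible because the study has 1 group, whose 2 libraries are technical replicates of 1 sample. Of 123 counts of members called or highest under an alternative, 112 stayed within 1.5 times the value reported, and of 438 single ratios and shares 366 stayed within the counting interval, 71 moved outside it and 1 changed sign. With the globin limit at 5%, 6 members were higher in atrial cardiomyocytes and 1 in pericytes. With the stricter gate, 1 member was higher in epicardium, and 1 was higher and 1 lower in pericytes. With Rspo3 alone as the marker, and Scx-only barcodes moved to the other fibroblasts, 2 members were lower in the positive fibroblasts. With the endothelial split at 0, added after the data were seen, 1 member was lower in endocardium and the log2 ratio of Hapln1 was -0.19. With 1 technical replicate left out, the members lower numbered 1 to 2 in Scx/Rspo3-positive fibroblasts, 0 to 2 in endocardium and 2 to 4 in pericytes, and those higher in pericytes 1 to 2. The cause was not tested for these changes, and the share of all genes called was not recorded for the alternatives. Members highest in a fibroblast class numbered 8 or 9 under each alternative run, again with no share of all genes recorded. One biological sample, 20 and 35 epicardial barcodes and under 100 counts of Hapln1 and Has2 in every class set the limits of these values.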
